A study of Sus scrofa with 92 samples.

Results

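The cytosolic ribosomal protein genes of the pig were described across 9 tissues and 10 breeds. Members were the genes whose pig symbol starts with RPL or RPS and a digit, or is RPLP0, RPLP1, RPLP2 or RPSA, with the kinase symbols that start with RPS6K left out. The rule found 28 of 25322 gene IDs, among the 11804 IDs with a symbol, and RPLP0 and RPSA were not among the 28. The same rule finds 84 symbols in the RefSeq annotation of Sscrofa11.1, so the 28 are a part of the family, and the other symbols were not analysed here. Of the members, 13 carry symbols of the large subunit and 15 of the small subunit. RPL10L, RPL26L1, RPL36AL, RPL7L1 and RPS27L are 5 paralogs named after another ribosomal protein, and the remaining 23 members are called the core family below. Their parent genes RPL10, RPL26, RPL36A, RPL7 and RPS27 were not analysed here.

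Ribosomal proteins coat and stabilise the ribosomal RNA of the small subunit, which decodes the message, and of the large subunit, which forms the peptide bonds. In mammals their mRNAs are among the most abundant of a cell and share a pyrimidine-rich start that places their translation under mTOR, so that members are known to be made in step. A few members have paralogs with restricted expression, and some have roles outside the ribosome, such as RPL5 and RPL11, which bind the p53 ubiquitin ligase MDM2.

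Total RNA of pigs aged 60 days was sequenced in 92 libraries, 1 for each tissue of a breed. There were 9 libraries each of ovary, subcutaneous adipose, kidney, liver and heart, 10 each of spleen and of 2 skeletal muscles, psoas major and longissimus dorsi, and 8 of lung, and 9 more were mixtures of multiple tissues. The pigs of Chinese origin were Tibetan wild boar (spleen and both muscles alone), Rongchang (without lung), Meishan, Jinhua and Bamei, and those of Western origin were Berkshire, Hampshire, Landrace, Large White and Piétrain, with origin taken from general knowledge of the breeds. Breeds serve as replicates. Whether the tissues of a breed came from the same animal, or animals were pooled, is not in the labels, so breed and animal cannot be told apart.

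Levels are FPKM as deposited, that is, sequenced fragments scaled to the length of the transcript and to the size of the library. They are per length, so genes can be set beside each other. The Large White heart had the highest total, 2196138 FPKM, and the Tibetan wild boar psoas major the lowest, 519075 FPKM. Between 10175 and 14561 genes per library were at 1 FPKM or above. Read counts were not analysed here. Depth relative to the other libraries, read from the steps of low values, was lowest in the Rongchang ovary (0.722) and highest in the Jinhua longissimus dorsi (1.385). The markers of each tissue were high in the tissue of that name. The 3 kidney markers (UMOD, SLC22A8 and SLC12A1), for example, summed to between 2203 and 2830 FPKM in kidney, and the 3 ovary markers (DPPA5, ZP3 and ZAR1) to between 490.7 and 2004 FPKM in ovary. Markers of other cells were present as well. Some of the lists that moved with a class are given beside it, not all of them.

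Within a tissue the core family spanned about an order of magnitude, and the order of its members was much the same in every tissue. RPLP1, an acidic protein of the large subunit stalk that recruits elongation factors, had the highest mean over the 9 tissue means, 2738 FPKM. RPS28 followed with 2115 FPKM, RPS12 with 1902 FPKM and RPS3 with 1617 FPKM, all proteins of the small subunit. RPS13 was the lowest core member with 256.4 FPKM, 10.68-fold below RPLP1, and its lowest library, the liver of Piétrain, still had 105.2 FPKM. RPLP1 was the highest member in 49 of 83 tissue libraries and RPS28 in 21. RPS12 led in 6 libraries, RPS3 in 5 and RPS21 in 2. Spearman's rho of core member levels between 2 tissues ranged from 0.913 (psoas major and ovary) to 0.989 (lung and kidney) over 36 pairs of tissues and 23 genes, given as a description, since all pairs share the genes' lengths and annotation.

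The 5 paralogs lay below every core member on average. RPL26L1 averaged 42.57 FPKM over the tissue means, RPL36AL 27.08, RPS27L 16.99, RPL7L1 12.54 and RPL10L 0.5655. How reads that match several copies of a ribosomal protein gene were assigned is not given in the sources used here, so levels of members with close copies are uncertain to that extent.

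Summed over the 28 members, the level was lowest in liver and highest in spleen, by their medians. The sum was 11030 to 14560 FPKM in liver with a median of 12440, 10580 to 17170 in psoas major (median 14740) and 13570 to 15450 in kidney (median 15130). Heart (median 18920 FPKM), longissimus dorsi (20990) and lung (21420) were intermediate. Subcutaneous adipose had 25080 to 34300 FPKM (median 29110), ovary 28590 to 36880 (median 32140) and spleen 28970 to 42380 (median 34060). The libraries of adipose, ovary and spleen did not overlap with those of liver, psoas major, kidney, heart or lung, while longissimus dorsi overlapped with psoas major, heart, lung and adipose, and adipose, ovary and spleen with one another. In these tissues the number of cells of a type and the RNA per cell cannot be told apart.

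**Figure D1:**
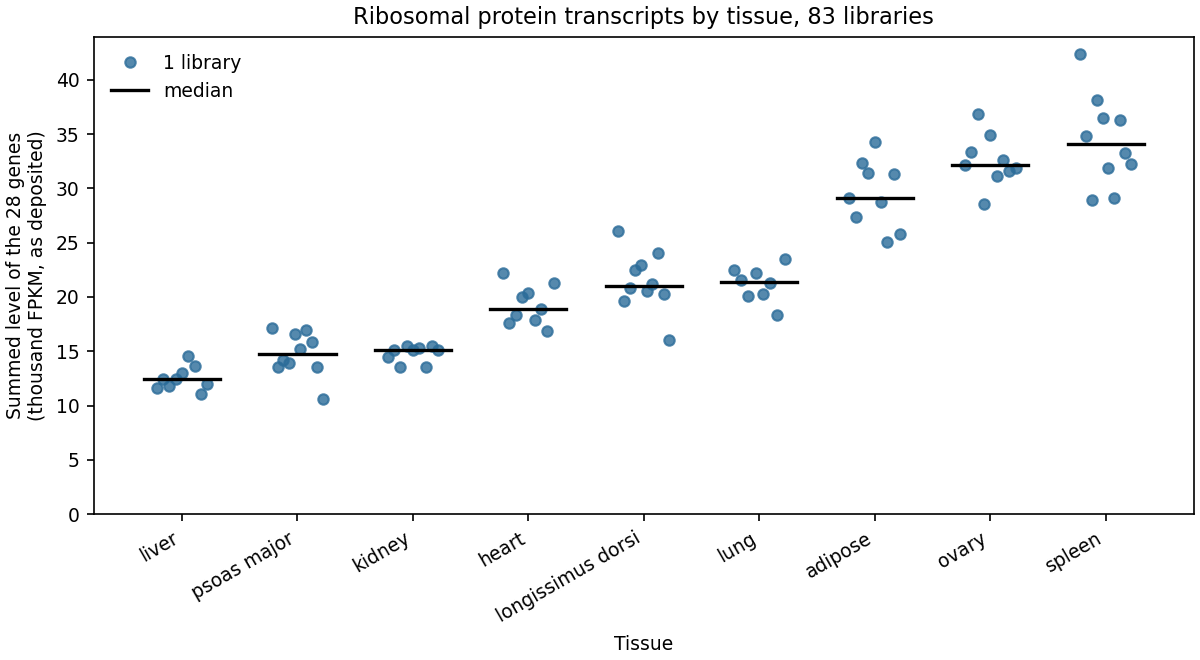
Summed FPKM of the 28 ribosomal protein genes, as deposited, for each of the 83 single-tissue libraries (points) and the median of each tissue (lines), in order of the median. Liver, psoas major and kidney have medians of 12440 to 15130 FPKM, and adipose, ovary and spleen of 29110 to 34060 FPKM.

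As a share of total FPKM, the members took a median of 1.625% in kidney (1.126 to 1.936%), 1.643% in psoas major and 1.873% in liver. The median share was 1.963% in heart, 2.792% in lung and 2.812% in longissimus dorsi. It reached 3.884% in spleen (2.178 to 5.535%), 4.494% in adipose and 5.101% in ovary (2.673 to 5.598%). In the Large White heart the members took 0.8161%, in the library with the highest total. The total holds a few very abundant genes. Set against the total of the genes outside the 100 most abundant of a library, which include 4 to 16 of the members, the summed members came to a median of 4.269% in liver, 4.891% in kidney, 6.678% in psoas major, 8.923% in ovary, 10.46% in adipose and 10.7% in spleen. Spleen and adipose then lay above ovary.

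Each tissue class was then set against the mean of the other 7 classes, with both muscles averaged into the class skeletal muscle. Libraries were brought to a common scale by the median ratio over all genes, and differences are in log2 of scaled FPKM plus 1, which understates the change of low genes. A gene was called when its limma p, adjusted by Benjamini and Hochberg over all 17207 genes tested, was below 0.05. All 28 members passed the filter on low values, which asked for 1 FPKM in 3 libraries. RPL10L passed it through the ovaries alone, so it had to differ there, and its calls below are a description.

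In subcutaneous adipose, 23 members were higher and 4 lower, where 26.6% of all genes were higher and 46.5% lower. The median difference was 0.37 for the members and -0.14 for all genes. All 4 skeletal muscle markers (TNNC2, MYL1, MYOZ1 and ATP2A1) were higher in adipose too, with a median of 2.37. Their sum was 28.19 to 2520 FPKM in adipose, with a median of 77.27 and Meishan the highest, and without the Meishan libraries the counts of members were still 23 higher and 4 lower. In spleen, 24 members were higher and 2 lower (31.9% and 48.2% of all genes), with medians of 0.36 for the members and -0.14 for all genes. The 4 red blood cell markers (HBB, HBM, ALAS2 and SLC4A1) were all higher in spleen, with a median of 2.45, and summed to 1521 to 12820 FPKM (median 5928), against medians of 166.4 to 2301 FPKM in the other 8 tissues. The part of these markers in the levels of the members was not tested. In kidney, 2 members were higher and 25 lower (32% and 43.3% of all genes), with medians of -0.84 and -0.09. Of the 4 red blood cell markers, 3 were lower and 1 higher in kidney, with a median of -1.27. The 3 markers of proliferating cells (CDK1, TOP2A and CCNB1) were all lower there, with a median of -0.6. They were also all lower in adipose (median -1.04), skeletal muscle (-1.06) and liver (-0.43), and all higher in spleen (1.51). In heart, lung and ovary 2 of the 3 were higher and 0 lower. The part of the red blood cell and proliferation lists in the levels of the members was not tested. In liver, 5 members were higher and 18 lower (32.5% and 47.9% of all genes), with medians of -0.17 and -0.14, so the liver family lay near the median of all genes. The members' median in these 4 classes kept its sign on FPKM as deposited, after quantile normalization and after upper quartile scaling. The core family alone had medians of 0.43 in adipose and 0.43 in spleen, both 1.344-fold higher, of -0.87 in kidney, 1.824-fold lower, and of -0.23 in liver.

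The direction in the other 4 classes depended on the scaling. In skeletal muscle, 25 members were higher and 3 lower (32% and 54.1% of all genes) with medians of 0.51 for the members and -0.18 for all genes, but on FPKM as deposited 3 were higher and 25 lower (11.9% and 81% of all genes) with medians of -0.34 and -0.65. In heart, 18 were higher and 3 lower (27.6% and 49.1% of all genes) with medians of 0.19 and -0.16, against 0 higher and 20 lower on FPKM as deposited (16.6% and 67.5% of all genes) with medians of -0.18 and -0.39. In lung, 0 were higher and 27 lower (32.1% and 41.7% of all genes) with medians of -0.61 and -0.09, against 4 higher and 9 lower on FPKM as deposited (57.8% and 21.1% of all genes) with medians of -0.05 and 0.31. In ovary, 12 were higher and 8 lower (40.7% and 40.9% of all genes) with medians of -0.03 and -0.02, against 26 higher and 1 lower on FPKM as deposited (64% and 21% of all genes) with medians of 0.68 and 0.5. On both of these scales the median of the members lay above that of all genes in muscle and heart and below it in lung. By the counts, this position was not kept after quantile normalization. Most members were then lower in muscle and heart, where 48.7% and 42.5% of all genes were lower. In lung more members were then higher than lower, where 31.4% of all genes were higher and 44.9% lower. In ovary the members' median lay 0.01 below that of all genes in the scaled data and above it as deposited. With scaling by all genes, 3 of 4 red blood cell markers were higher and 1 lower in lung (median 0.81), and 4 of 4 were lower in ovary (-1.94). Of 4 markers of spleen and lymphocytes, 3 were higher and 1 lower in lung (0.72). Of 3 heart markers, 2 were higher and 1 lower in muscle (1.56). The part of these markers in the levels of the members was not tested.

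The scaling moved the whole table as well. Of all calls, 36% were higher in heart (19.7% on FPKM as deposited), 37.1% in skeletal muscle (12.8%) and 40.4% in liver (17.7%). The share was 39.8% in spleen (56.2% as deposited), 42.5% in kidney (55.5%), 43.5% in lung (73.2%) and 49.9% in ovary (75.3%). Members were therefore also set against their own family, with libraries scaled by the 23 core members, which takes the level of the whole family out. This comparison was added after the data had been seen, and the members named from it were chosen by their values. Since the family is the yardstick, the counts say how many members departed from it. In skeletal muscle 11 members were above the family and 13 below, where 17.1% of all genes were higher and 71.7% lower. In adipose 6 were above and 14 below (12.5% and 70.7% of all genes), in spleen 8 and 15 (17.1% and 66.2%), and in heart 6 and 11 (19.2% and 60.4%). In lung 9 were above and 9 below (59.7% and 19.1% of all genes), and likewise in kidney 9 and 9 (66.6% and 17.9%). In liver 12 were above and 9 below (39% and 40.2% of all genes), and in ovary 12 and 10 (38.8% and 41.5%).

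**Figure D2:**
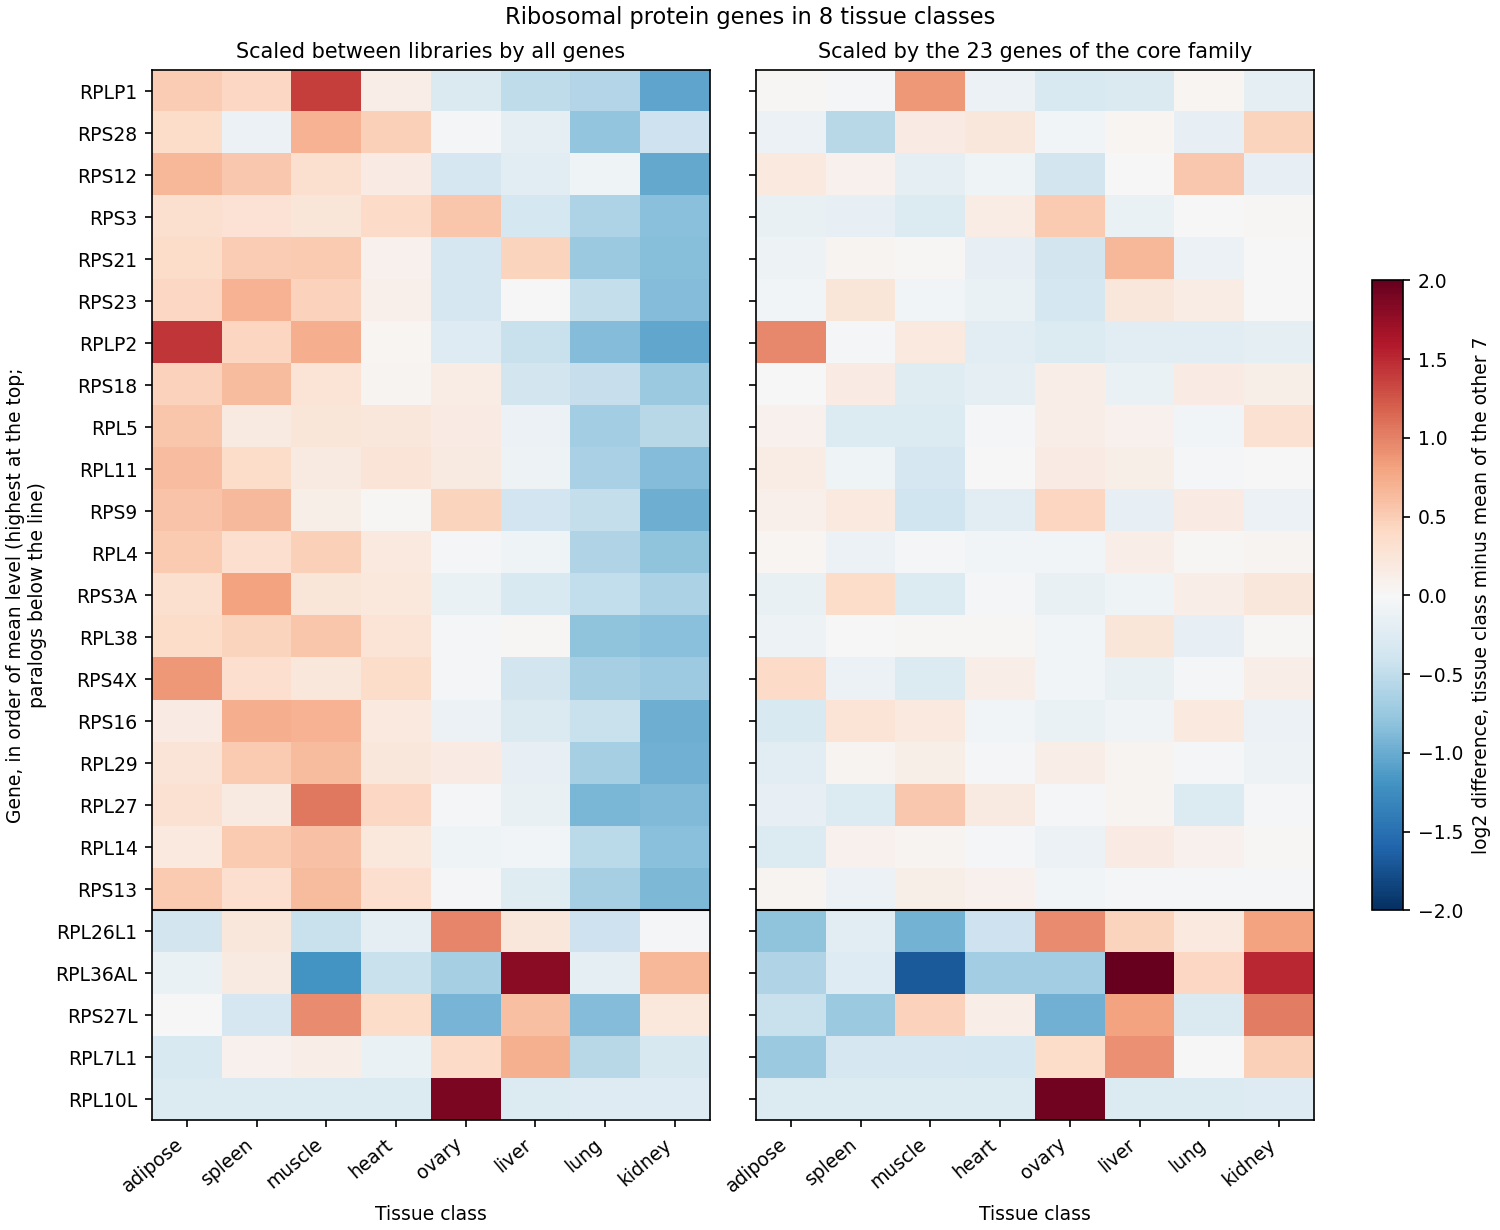
Differences between each tissue class and the mean of the other 7 classes, in log2 of scaled FPKM plus 1, for 25 of the genes in order of mean level, with the 5 paralogs below the line. With scaling by all genes (left) the members' medians are 0.37 in adipose, 0.36 in spleen, -0.84 in kidney, and, with signs or sizes that change on FPKM as deposited, 0.51 in muscle (-0.34) and -0.61 in lung (-0.05), and with scaling by the 23 core genes (right) RPLP1 in muscle, RPLP2 in adipose and RPL36AL in liver, kidney and muscle stand out.

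With scaling by all genes, the stalk proteins RPLP1 and RPLP2 peaked in different tissue classes, skeletal muscle and adipose. The class where RPLP1 peaked changed with the scaling. It was called above each other class in spleen on FPKM as deposited (smallest log2 difference 0.26) and in ovary after quantile normalization (0.4), while RPLP2 stayed highest in adipose on both. RPLP2 had 1988 to 3223 FPKM in adipose with a median of 2899, against medians of 1772 in spleen, 1462 in ovary and 544.8 to 1129 in the other 6 tissues. Adipose overlapped with spleen alone, where Bamei reached 2324 FPKM. In scaled FPKM, RPLP2 averaged 2551 ± 431.5 in adipose (SD, n = 9). The log2 difference from the other classes was 1.43 (SE 0.07, adjusted p 2.849e-29, limma), higher in 9 of 9 breeds. Against the family it was still 0.96 higher (adjusted p 7.522e-29), a 1.946-fold difference. RPLP1 averaged 5409 ± 1635 scaled FPKM in skeletal muscle (SD, n = 20 libraries, 2 muscles of each of 10 breeds). In log2 it was 1.39 above the other classes (SE 0.05, adjusted p 5.802e-38, limma), a difference that was 0.52 on FPKM as deposited and turned to -0.11 after quantile normalization. Against the family it was 0.87 higher in muscle (adjusted p 1.316e-37), or 1.826-fold. RPLP2 in muscle was 0.2 above the family.

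Of the other large subunit proteins, RPL27 also stood above the family in muscle. Its log2 difference from the other classes was 1.06 (SE 0.04, adjusted p 1.373e-34, limma) and 0.2 on FPKM as deposited, and against the family it was 0.54 (adjusted p 4.09e-32). In heart RPL27 was 0.42 higher with libraries scaled by all genes, and 0.05 (adjusted p 0.45) on FPKM as deposited. In lung it was 0.91 lower with scaling by all genes and 0.28 below the family (adjusted p 5.642e-11). RPL4, which lines the exit tunnel of the nascent peptide, followed the family most closely. Its correlation with the mean of the other members over 83 libraries was 0.96, as a description over libraries that share tissues. The 23 core members had correlations of 0.77 (RPL14) to 0.96, and the 5 paralogs of -0.45 (RPL36AL) to 0.33 (RPS27L).

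Among small subunit proteins of the core family, the largest departures from the family were those of RPS21, RPS28, RPS12 and RPS3. RPS21 in liver had 977 to 1432 FPKM with a median of 1178, and stood 0.66 above the family (adjusted p 3.297e-18, limma), while 18 members were lower in liver. RPS12 in lung was 0.54 above the family (adjusted p 1.57e-18), with 2016 to 2764 FPKM. It was the member of lung closest to the other classes when libraries were scaled by all genes, at -0.09 (adjusted p 0.18). RPS3, at the channel where mRNA enters the ribosome, was 0.53 above the family in ovary (adjusted p 1.019e-21), with 2922 to 3980 FPKM in ovary. No ovary library overlapped with the livers, where RPS3 had 662.9 to 1003 FPKM. RPS28 was 0.56 below the family in spleen (adjusted p 1.165e-25) and 0.44 above it in kidney (adjusted p 8.52e-20).

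In spleen the members with the largest differences when libraries were scaled by all genes were RPS3A and RPS16, both of the small subunit. RPS3A averaged 930.8 ± 176.1 scaled FPKM in spleen (SD, n = 10), 0.81 higher (SE 0.06, adjusted p 3.174e-21, limma), and RPS16 was 0.73 higher. Both lay above the family as well, RPS3A by 0.36 and RPS16 by 0.28. In adipose RPS4X, a small subunit protein encoded on the X chromosome, followed RPLP2 with a difference of 0.86 (SE 0.06, adjusted p 4.703e-21) and stood 0.39 above the family. In kidney RPLP1 and RPLP2 were among the lowest, at -1.05 and -1.04, and they were 0.19 and 0.18 below the family. In liver RPLP1 was 0.51 lower (1.2 lower on FPKM as deposited) and 0.29 below the family. RPS28 in heart was 0.48 higher with scaling by all genes but 0.26 lower after quantile normalization, and it was 0.23 above the family (adjusted p 5.974e-09).

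The paralogs did not follow the core family. RPL10L (ENSSSCG00000005001) is known in mouse as an autosomal copy that stands in for the X-linked RPL10 during male meiosis. Here it was listed at 0 in 73 of 74 tissue libraries other than ovary, and the exception was the Hampshire kidney with 0.09287 FPKM. It was above 0 in 9 of 9 ovaries, with 9.908 FPKM in Bamei, 8.257 in Rongchang, 7.284 in Jinhua and 6.293 in Piétrain. The other ovaries had 4.065 FPKM in Large White, 3.799 in Landrace, 2.622 in Hampshire, 2.294 in Berkshire and 1.194 in Meishan. All 9 mixtures were listed at 0. An exact 0 in these files may be a failed estimate, so no fold is given. RPL10L was the single member that stood above each other class by a log2 difference over 1, with a smallest difference of 1.88 in log2 of scaled FPKM plus 1 in ovary, a call that 5.43% of all genes met there. Since it passed the filter on low values through the ovaries alone, no p is given for it. No member met it in heart, liver, spleen, lung, kidney, skeletal muscle or adipose, where 1.37%, 4.96%, 2.89%, 1.44%, 2.67%, 2.44% and 1.69% of all genes did. With any difference above 0 and scaling by all genes, RPL36AL and RPL7L1 were higher in liver than in each other class (10.4% of all genes), RPS3A and RPS23 in spleen (9.12%), RPLP2, RPS4X, RPL5 and RPL11 in adipose (4.23%), and RPL26L1 beside RPL10L in ovary (14.7%). RPLP1, RPL27, RPS27L and RPS28 were among 5 members so called in muscle (8% of all genes). On FPKM as deposited the count was 0 in muscle and 0 in liver, and after quantile normalization RPS27L alone kept the call in muscle and RPL36AL alone in liver. Other calls were gained. In ovary 8 members were so called on FPKM as deposited (26.1% of all genes) and 13 after quantile normalization (15.1%). Among those 13 were RPS3 and RPS28, with smallest differences of 1.96 and 1.11. As deposited, 7 members were so called in spleen (9.55% of all genes) and 1 in kidney (6.99%). The calls of RPS3A and RPS23 in spleen, RPLP2 in adipose and RPL26L1 in ovary held on both scales, and those of RPS4X, RPL5 and RPL11 in adipose on neither. The calls of RPL10L as lower in the other classes, near -0.27 each, come with the ovary being part of the mean they were set against. The ovary markers summed to at most 2.127 FPKM in any tissue other than ovary.

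RPL36AL (ENSSSCG00000005006), a copy of the large subunit gene RPL36A, was high in liver and kidney and low in muscle. It had 37.41 to 62.66 FPKM in liver with a median of 53.39, and 39.68 to 52.3 in kidney with a median of 43.96. Medians were 35.67 in spleen, 33.05 in lung, 25.43 in ovary, 23.63 in adipose and 15.37 in heart. Psoas major had 5.711 to 7.918 FPKM and longissimus dorsi 5.385 to 9.593, below every library of the other tissues. The largest range of class means among the members was that of RPL36AL, 2.63 on the log2 scale. In liver it was 1.8 higher than in the other classes (SE 0.06, adjusted p 2.764e-40, limma), in kidney 0.67 higher, and in muscle it fell by 1.2 (SE 0.04, adjusted p 8.822e-38). On FPKM as deposited these differences were 1.11, 0.89 and -1.99. Against the family the differences were 2.01 in liver, 1.5 in kidney and -1.68 in muscle. With scaling by all genes, liver exceeded kidney by 0.99 (SE 0.08) and spleen by 1.42, and lung and adipose, at a difference of -0.04 (adjusted p 0.74), were not distinguished. The smallest lead of liver over another class was 0.33 after quantile normalization. On FPKM as deposited RPL36AL was not called above each other class in liver. In lung its difference from the other classes was -0.18 with scaling by all genes and 0.37 on FPKM as deposited, and in ovary it was -0.66 and 0.01.

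RPL26L1 (ENSSSCG00000016989), a copy of RPL26, was highest in ovary. There it had 90.73 to 131.8 FPKM with a median of 112.9, and no library of another tissue exceeded 62.8 FPKM, the value of the Hampshire spleen. The log2 difference in ovary was 0.97 (SE 0.06, adjusted p 5.185e-26, limma), higher in 9 of 9 breeds, and 0.95 against the family. Both muscles had the lowest medians, 16.63 FPKM (psoas major) and 16.07 FPKM (the longissimus). In adipose it was 0.36 lower.

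RPS27L and RPL7L1 showed 2 further patterns. RPS27L (ENSSSCG00000023158), a copy of RPS27 known in human cells as a target of p53, varied least in deposited FPKM among the 28 members, with a 1.607-fold span of tissue means, 22.12 ± 2.585 in kidney (SD, n = 9) and 13.76 ± 1.355 in lung (SD, n = 8). Against the family it was 1.03 higher in kidney (adjusted p 1.142e-22) and 0.81 higher in liver, and it was 0.96 lower in ovary and 0.75 lower in spleen. With scaling by all genes it was 0.33 lower in spleen, and 0.06 higher on FPKM as deposited. RPL7L1, a nucleolar relative of RPL7, was 0.71 higher in liver (SE 0.07, adjusted p 8.965e-15, limma) and 0.06 higher (adjusted p 0.44) on FPKM as deposited. Its deposited levels were highest in ovary, with 14.92 to 36.09 FPKM, against 9.394 to 15.18 FPKM in liver. Ovary was 0.36 above the family for RPL7L1 and liver 0.91 above it.

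**Figure D3:**
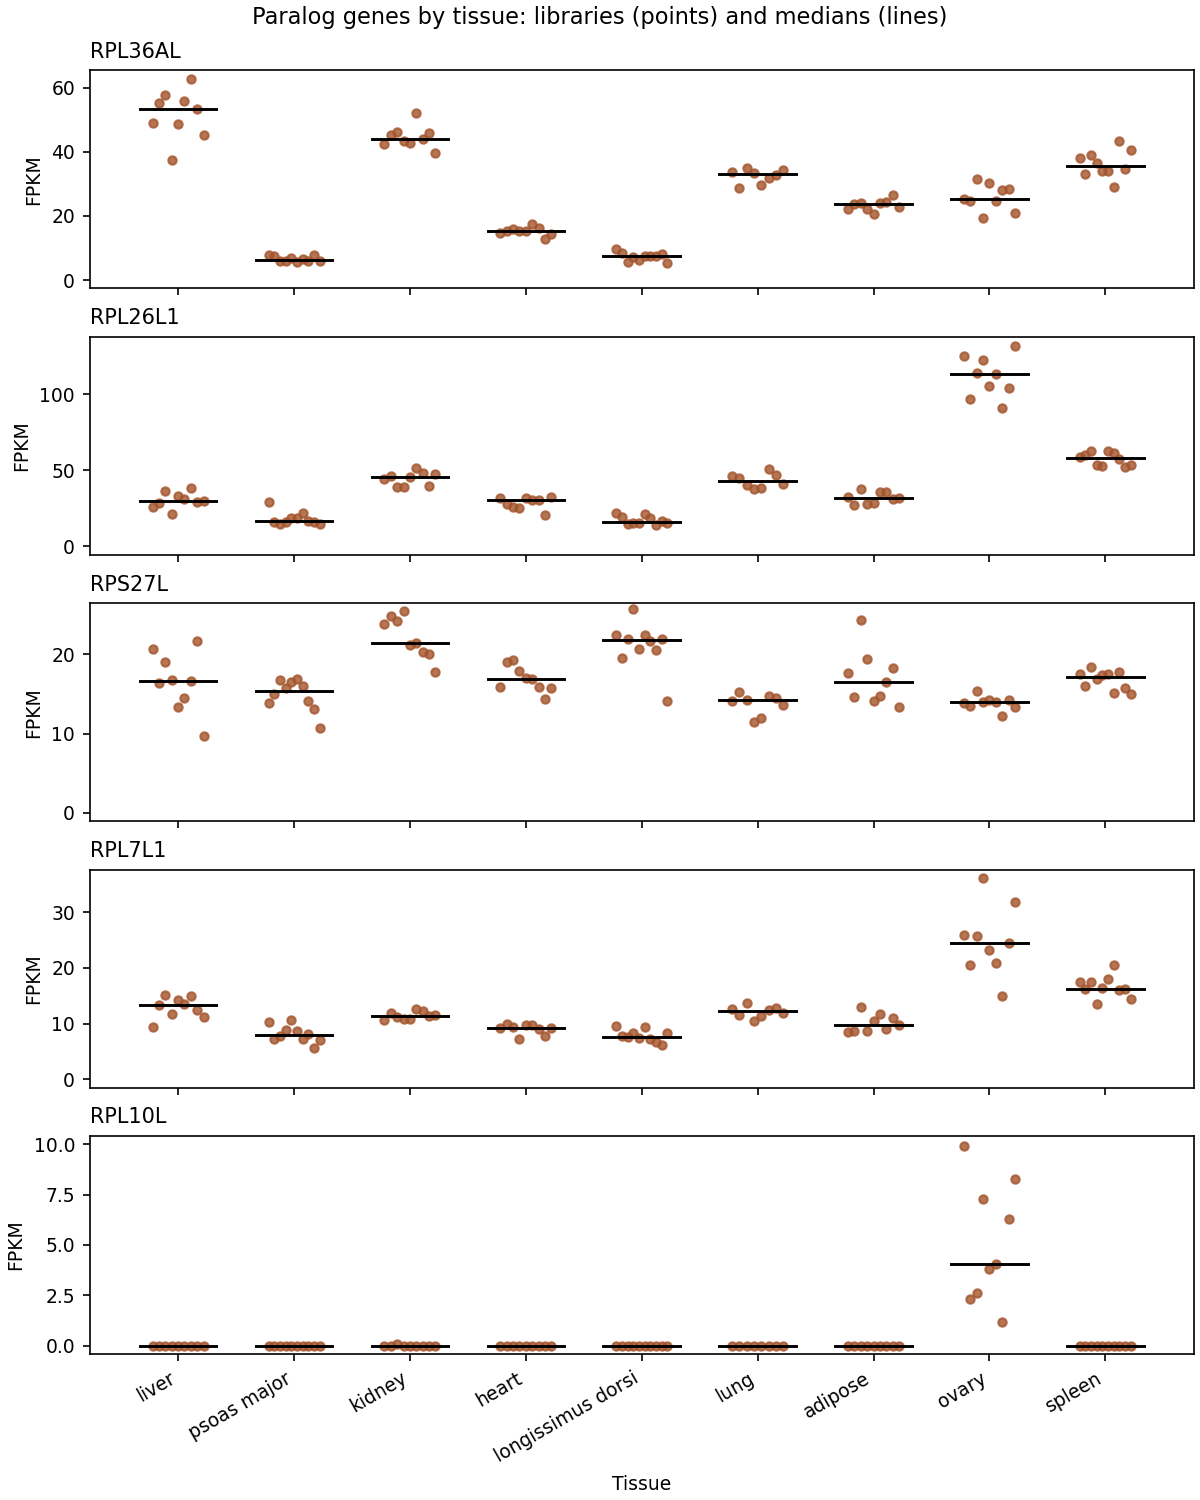
FPKM as deposited of the 5 paralogs in the 83 single-tissue libraries (points) with the median of each tissue (lines). RPL36AL runs from 5.385 FPKM in muscle to 62.66 in liver, RPL26L1 exceeds 90 FPKM in ovary alone, and RPL10L is above 0 in the 9 ovaries and 1 kidney.

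Other genes of translation were taken from lists written from general knowledge. RACK1 and FAU encode small subunit proteins under other symbols. RACK1, a scaffold on the small subunit, was 0.41 higher in adipose, 0.41 higher in spleen, 1.02 lower in kidney and 0.77 lower in lung (limma, scaling by all genes). After quantile normalization it was 0.39 lower in kidney and at -0.06 (adjusted p 0.40, limma) in lung, where FPKM as deposited gave -0.19, and as deposited it was 0.81 higher in spleen. In muscle it was 0.72 higher with scaling by all genes and 0.14 lower on FPKM as deposited. FAU, whose product is a ubiquitin-like protein fused to a ribosomal protein, was instead 1.25 higher in liver (adjusted p 5.249e-35), 0.68 lower in muscle and 0.8 lower in heart, and on FPKM as deposited these values were 0.59, -1.42 and -1.14. Of 6 elongation factors and partners, 6 were lower in kidney, where 43.3% of all genes were lower (5 on FPKM as deposited, 33.7% of all genes). In adipose 5 were higher, where 26.6% of all genes were (5 as deposited, 25.9%). In muscle 5 were higher and 1 lower (32% and 54.1% of all genes), but 1 higher and 4 lower as deposited (11.9% and 81%). EEF1D, a subunit of the exchange complex of elongation factor 1, was 1.31 higher in muscle (0.45 on FPKM as deposited and 0.77 after quantile normalization) and 0.98 lower in kidney. PABPC1, the poly(A)-binding protein, was 0.95 lower in muscle (1.81 lower on FPKM as deposited and 1.45 lower after quantile normalization) and 1.14 higher in adipose. Of 22 initiation factors, 18 were lower in kidney (12 on FPKM as deposited), beside the same shares of all genes, and in muscle 20 were higher and 2 lower with scaling by all genes but 10 higher and 11 lower on FPKM as deposited. In lung 0 were higher and 21 lower with scaling by all genes (32.1% and 41.7% of all genes), and 8 higher and 7 lower on FPKM as deposited (57.8% and 21.1%).

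Mitochondrial ribosomal proteins, which build a separate ribosome for the mitochondrial genome, were set beside the cytosolic family. Of 44 such genes, 42 were higher in heart with a median of 0.75, where 27.6% of all genes were higher (34 on FPKM as deposited with a median of 0.39, where 16.6% of all genes were). In spleen 39 were lower with a median of -0.47, where 48.2% of all genes were lower (16 as deposited with a median of -0.08, where 36.4% were). In adipose 28 were lower with a median of -0.32, where 46.5% of all genes were lower (26 as deposited with -0.31, where 47.9% were). In lung 44 were lower with a median of -0.98, where 41.7% of all genes were lower (38 as deposited with -0.44, where 21.1% were). In liver and muscle their direction turned with the scaling, from medians of 0.45 and 0.77 with scaling by all genes to -0.2 and -0.06 on FPKM as deposited. With scaling by all genes, the cytosolic members had medians of 0.36 in spleen and 0.37 in adipose, where the mitochondrial ones were lower. As deposited, the share of mitochondrial ones lower in spleen was near that of all genes. Of 25 ribosome biogenesis genes, 14 were higher in ovary, where 40.7% of all genes were (23 on FPKM as deposited, where 64% were). In kidney 20 were lower, where 43.3% of all genes were (13 as deposited, where 33.7% were). POLR1E, a subunit of the polymerase that makes ribosomal RNA, was 2.02 higher in ovary. The proliferation markers CDK1, TOP2A and CCNB1 summed to a median of 63.96 FPKM in spleen and 44.6 in ovary, against 4.586 to 31.72 in the other 7 tissues, and their part in the levels of the members was not tested.

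Outside the members, the 5 genes most like the family by Pearson correlation of log2 level with the mean of the members over 83 libraries, of 10559 genes with a symbol, were RACK1 (0.947), EEF1B2 (0.909), EIF3G (0.871), BTF3 (0.84) and EIF3D (0.807). EEF1B2 is a subunit of the exchange complex of elongation factor 1, EIF3D and EIF3G are subunits of initiation factor 3, and BTF3 is part of the complex that binds nascent peptides. These correlations, given as a description, use libraries that share tissues and scaling.

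Psoas major and longissimus dorsi were compared in 10 breeds with breed as block. Psoas major is a deep loin muscle and longissimus dorsi the muscle along the back. Of 27 members tested, 24 were lower in psoas major and 0 higher, where 15.1% of all 12112 genes tested were lower and 12.7% higher. RPL10L, listed at 0 in both muscles, did not pass the filter. The median difference was -0.45 for the members and -0.01 for all genes. All 23 core members were lower in psoas major, by 0.25 (RPLP2) to 0.8 (RPS16) on the log2 scale.

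RPS16 had 161.7 to 371.7 FPKM in psoas major with a median of 315.8, and in longissimus dorsi muscles it had 369.5 to 735.3 FPKM with a median of 535.9. The groups touch at a single point, where Meishan psoas major lies above Tibetan wild boar longissimus dorsi. Scaled FPKM of this comparison were scaled over its 20 libraries alone, so they cannot be set beside the scaled FPKM of the tissue classes. In scaled FPKM RPS16 averaged 314.2 ± 59.57 in psoas major, against 550 ± 135.3 in the other muscle (SD, n = 10 each). The log2 difference was -0.8 with an SE of 0.07 (adjusted p 5.26e-05, limma), lower in 10 of 10 breeds. RPLP1 differed by -0.65 (adjusted p 0.0005556) and RPL38 by -0.64 (adjusted p 0.0002339, limma), each lower in psoas major in 10 of 10 breeds. For RPLP1 the psoas major mean was 2646 ± 377.8 scaled FPKM and the longissimus dorsi mean 4179 ± 836.6 (SD, n = 10 each).

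The smallest called differences were those of RPLP2 (-0.25), RPL4 (-0.29) and RPL29 (-0.36). All 3 lost their call after quantile normalization, where 19 members were lower. The 15.1% of all genes lower belongs to scaling by all genes, and the share after quantile normalization is not given here. Among the paralogs, RPS27L was 0.46 lower in psoas major (adjusted p 0.0003292, limma). RPL36AL differed by -0.1 (adjusted p 0.24), RPL7L1 by 0.07 (adjusted p 0.40) and RPL26L1 by 0.09 (adjusted p 0.36). Against the family, 5 members were higher in psoas major and 4 lower, where 71.8% of all genes were higher and 1.93% lower. RPL26L1 (0.53), RPL7L1 (0.48), RPL36AL (0.31), RPLP2 (0.22) and RPL4 (0.18) were above the family, and RPS16 (-0.33), RPLP1 (-0.18) and RPL38 (-0.17) were among those below it.

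The median member was lower in psoas major in each of the 10 breeds. The difference was largest in Piétrain (-0.62), Rongchang (-0.6) and Landrace (-0.56), and smallest in Meishan (-0.2) and Tibetan wild boar (-0.2), while the median of all genes lay between -0.02 and 0. In every breed at least 23 of 27 members were lower. Without the replicate block, 20 members were lower and 0 higher, and 2.72% of all genes were lower.

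**Figure D4:**
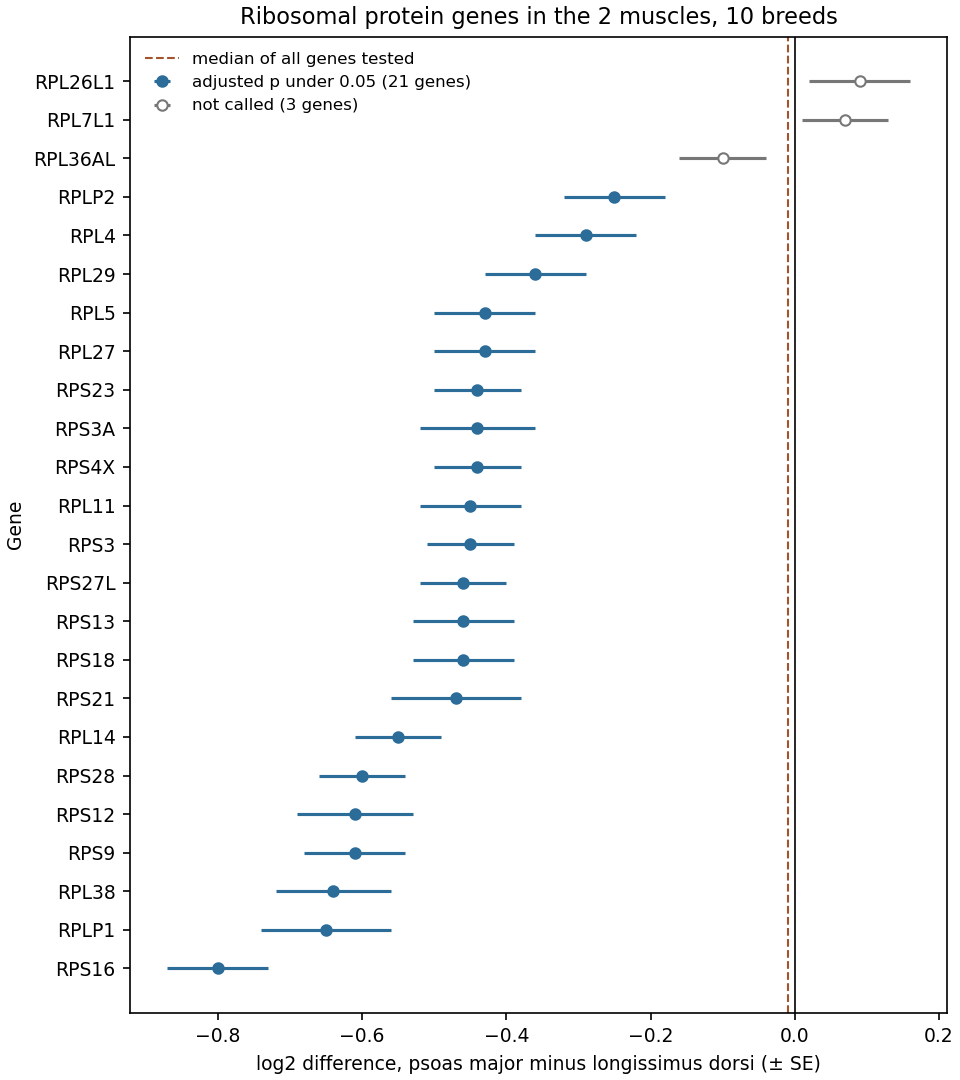
Difference between psoas major and longissimus dorsi for 24 of the 27 members tested, in log2 of scaled FPKM plus 1, with standard errors, over 10 breeds. The 21 filled points have an adjusted p below 0.05 and lie between -0.25 and -0.8, the 3 open points are RPL36AL, RPL7L1 and RPL26L1, and the dashed line is the median of all genes at -0.01.

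Markers of other tissues differed between the muscles as well. All 4 liver markers (AHSG, AMBP, HPX and CYP2E1) were lower in psoas major, with sums of 0.03052 to 3.182 FPKM in psoas major, against 0.08154 to 52.52 FPKM in longissimus dorsi. Of 3 adipocyte markers the 2 tested, PLIN1 and CIDEC, were lower. Together with LGALS12, which was not tested, the 3 summed to 1.496 to 8.403 FPKM in psoas major, against 4.007 to 20.44 FPKM in longissimus dorsi. The 4 skeletal muscle markers were lower too, by 0.35 (ATP2A1) to 0.59 (MYL1), with sums of 11310 to 26600 FPKM in psoas major, against 17550 to 42840 FPKM in longissimus dorsi. Of 3 heart markers the 2 tested went opposite ways, with MYH6 0.6 higher in psoas major (adjusted p 0.01714, limma) and TNNT2 1.1 lower (adjusted p 0.002593), and the 3 summed to 533.2 to 2295 FPKM in psoas major, against 365.7 to 1806 FPKM in longissimus dorsi. No marker of red blood cells (3 tested), proliferating cells (3 tested), lymphocytes (1 tested) or lung (1 tested) was called. The part of these markers in the difference of the ribosomal protein genes was not tested. Of the 6 elongation factors and partners, 4 were lower in psoas major and 0 higher, with EEF1B2 at -0.67, where 15.1% of all genes were lower. Of 44 mitochondrial ribosomal proteins, 7 were higher in psoas major and 4 lower, shares near the 12.7% and 15.1% of all genes.

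Chinese breeds were compared with Western breeds on the mean log2 level over 8 tissues, without lung, in 4 Chinese and 5 Western breeds. No member was called, with 0 higher and 0 lower of 28 by limma, where 0.165% of 16996 genes were higher and 0.147% lower. At an unadjusted p below 0.05, 0 members were higher and 2 lower, against 4.17% and 4.12% of all genes. The 2 were RPL14 and RPL38, both of the large subunit. RPL14 had mean log2 levels of 8.18 ± 0.35 in Chinese breeds (SD, n = 4) and 8.7 ± 0.29 in Western breeds (SD, n = 5), a difference of -0.52 (SE 0.19, unadjusted p 0.01997, adjusted p 0.47, limma). RPL38, known in mouse for its part in the translation of Hox mRNAs, differed by -0.27 (SE 0.1, unadjusted p 0.02755, adjusted p 0.51). RPL7L1 followed with -0.11 (unadjusted p 0.07225, adjusted p 0.65).

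The level of RPL14 (ENSSSCG00000011272) also varied between single breeds. Meishan had the lowest RPL14 level of the 9 breeds other than Tibetan wild boar in 9 of 9 tissues, and Landrace, Large White and Piétrain were the 3 highest in 9 of 9 tissues. In heart, for example, Meishan had 193.7 FPKM, against a median of 341.2 and a highest value of 426.5 in Landrace. In spleen Meishan had 304.5 FPKM and Landrace 845. In psoas major Tibetan wild boar was lower still, with 128.4 FPKM, against 181.1 in Meishan. Relative to the median of the core family in the same library, the median log2 level of RPL14 was -1.57 in Meishan and -1.05 to -0.91 in the other Chinese breeds. It was -0.99 in Berkshire, -0.82 in Hampshire, -0.56 in Landrace, -0.51 in Piétrain and -0.48 in Large White. Mean log2 levels over 8 tissues ran from 7.66 in Meishan to 9.01 in Landrace, with Berkshire (8.34) and Hampshire (8.45) among the Chinese breeds Bamei (8.42) and Jinhua (8.35).

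A moderated F test for breed over the 83 tissue libraries, added after this pattern had been seen, called 19 of 28 members, where 54.8% of all genes were called. RPL14 had the smallest p among the members (adjusted p 4.779e-26, limma), followed by RPL38 (1.226e-10) and RPS9 (6.024e-09), a small subunit protein near the decoding site. Libraries of 1 breed may share an animal, and these p then measure the difference between the animals sampled. Shares of variance were taken over 72 of the libraries, those of the 9 breeds and 8 tissues of the comparison by origin. Breed took 43.34% of the variance of RPL14, 16.75% of that of RPL38, 15.57% of that of RPL5 and 12.96% of that of RPS9, beside a median of 3.833% for the members and 4.267% for all genes. Tissue took 51.55% of the variance of RPL14, beside a median of 85.97% for the members and 82.48% for all genes. Without Meishan the F test for RPL14 gave an adjusted p of 2.412e-17. The level of RPL38, not set against the family, was lowest in Meishan in 7 of 9 tissues and in Jinhua in 2, with Tibetan wild boar left out. Relative to the core family in the same library, its median log2 level was -0.34 in Meishan and -0.41 in Jinhua, against 0.03 in Hampshire. On that scale Jinhua lay below Meishan in heart, spleen, lung, kidney, psoas major and adipose, for example at -0.67 against -0.54 in spleen.

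**Figure D5:**
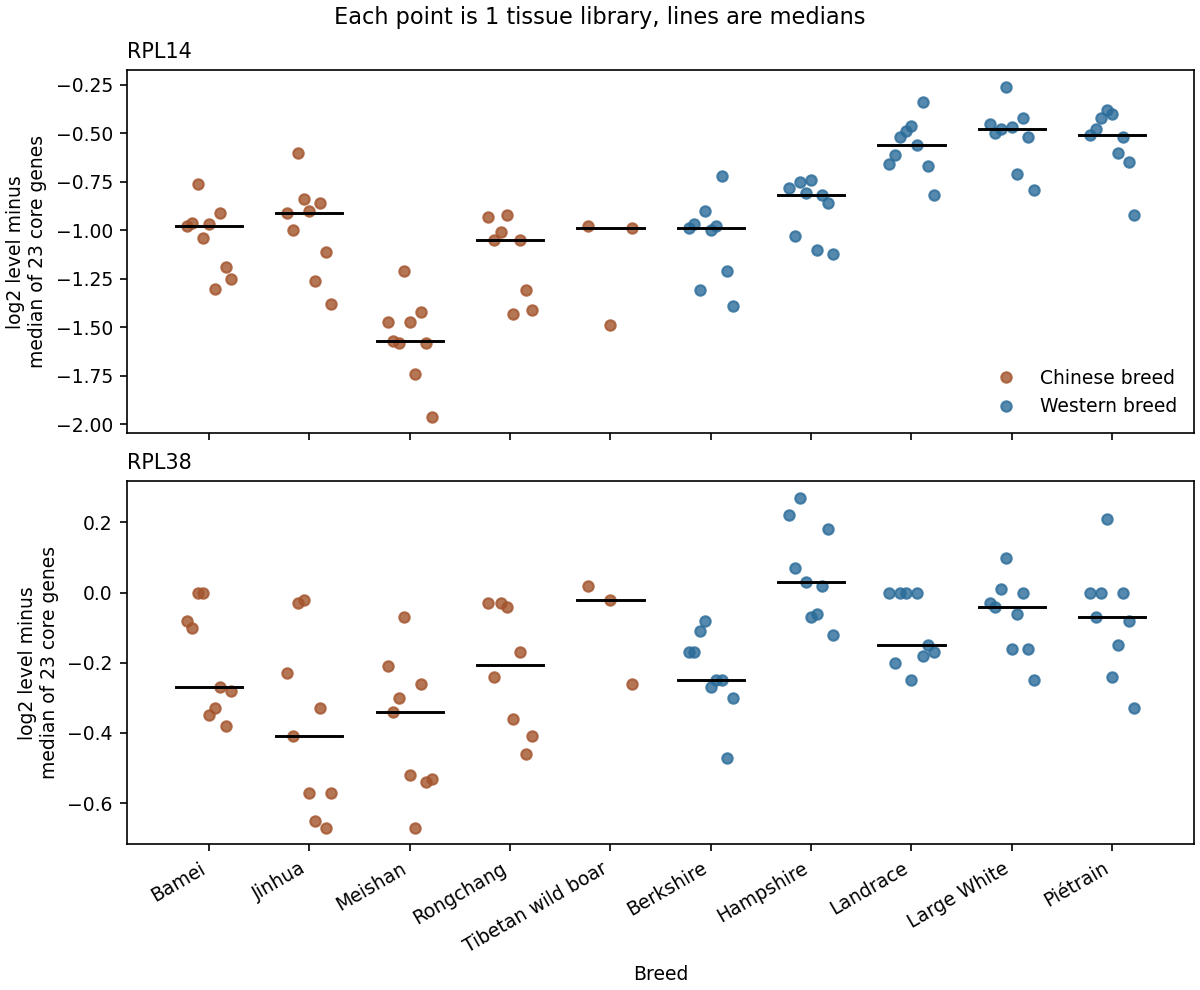
Level of RPL14 and RPL38 in each tissue library, in log2 relative to the median of the 23 core genes in the same library, by breed, with Chinese breeds at the left and Western breeds at the right; lines are medians over tissues. The RPL14 points of Meishan centre on -1.57 and those of Landrace, Large White and Piétrain on -0.56 to -0.48.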

How the data were processed

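The authors deposited FPKM per gene ID for each library, 1 table per breed. TopHat, Cufflinks 2.2.1 and the Sscrofa10.2 genome are named in the submitters' processing notes, and the annotation release and options are not given in the sources used here. Gene IDs were given symbols from a list of names. The members, lists and comparisons were chosen with earlier results of these data known. No value was negative and no pair of libraries was identical.

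FPKM were scaled by median ratios over genes above 0 in every library of a fit. Genes that reached 1 FPKM in 3 libraries or more were tested on log2 of scaled FPKM plus 1 with limma 3.58.1 (trend and robust options) and statmod 1.5.0 in R 4.3.3. Breed was a block, except for origin, where lung was left out because Rongchang has none. p are two-sided, adjusted over all genes tested. Scripts were tested on simulated data. Python 3.11.15 with numpy 2.4.6, pandas 2.3.3 and matplotlib 3.10.9 was used for the rest.

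Psoas major and longissimus dorsi of a breed were checked for pairing: their deviations from the muscle means correlated at 0.322 to 0.534, and in 10 of 10 breeds the partner was the best match. Named members are the 2 called members with the largest and the 2 with the smallest difference in a class, the 4 and 4 for the muscles, the 3 smallest p for origin, and the 4 highest and lowest by level. Other members named were chosen after their values were seen. The comparison with the family, the test for breed and the other scalings of the pathway lists, of the shares of all genes called and of the calls above each other class were added after the data had been seen. Alternatives were other scalings, pseudocounts, filters and moderation, no block, and leaving out each breed. Single values of 3 members are not reported here, though they enter every fit, sum and count. Sequences, levels of parent genes and read counts were not analysed here.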

Additional observations from a re-analysis of the deposited data

Results flagged for a closer look

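Of 162 groups of 8 to 10 libraries checked for a sample far from the rest, 10 had one, where chance gives about 5 percent of groups. The summed members took 2.673% of total FPKM in the Meishan ovary, against 4.261 to 5.598% in the other ovaries. Bamei spleen was far above the other spleens in 3 members, with 5281 FPKM of RPLP1 (others 3191 to 4288), 2324 of RPLP2 (others 1583 to 1970) and 3192 of RPS28 (others 2087 to 2577). Tibetan wild boar was low in RPS16 in psoas major, with 161.7 FPKM (others 277 to 371.7), and in RPS27L in longissimus dorsi, with 14.14 FPKM (others 19.56 to 25.67). The Hampshire kidney had 229.3 FPKM of RPL29 (others 274.7 to 308.3) and 0.09287 FPKM of RPL10L, listed at 0 in the other kidneys. RPL26L1 reached 29.29 FPKM in the Bamei psoas major (others 14.66 to 21.84), and RPS16 reached 758.7 in the Landrace adipose (others 424.3 to 592.2).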

How the results depend on the processing

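Of 1856 values recomputed for 108 results, 1068 came from leaving out 1 breed, so the totals speak largely of single breeds and less of the scalings. In all, 1789 values counted as unchanged. For these, single members kept direction and side of the threshold, counts stayed within 1.5 times, and shares moved by less than the spread. Another 50 counts of members or shares of total FPKM moved by more, 11 single members lost their call and 6 single values changed sign. On FPKM as deposited, members higher were 0 in heart, 1 in liver, 4 in lung, 3 in muscle and 26 in ovary, and members lower were 20 in heart, 1 in spleen, 9 in lung, 25 in muscle and 1 in ovary. In the same orders, 16.6%, 15.6%, 57.8%, 11.9% and 64% of all genes were higher as deposited, and 67.5%, 36.4%, 21.1%, 81% and 21% lower. There RPS27L in spleen was at 0.06, RPL36AL in lung at 0.37 and RPL36AL in ovary at 0.01. After quantile normalization, members higher were 1 in heart, 3 in liver, 9 in lung, 3 in muscle and 26 in ovary, and members lower were 22 in heart, 5 in lung, 24 in muscle and 2 in ovary. In the same orders, 29.9%, 28.2%, 31.4%, 34.4% and 37.8% of all genes were higher after quantile normalization, and 42.5%, 44.9%, 48.7% and 46.4% lower. There RPS28 in heart was at -0.26, RPL36AL in lung at 0.1 and RPLP1 in muscle at -0.11. Of members higher than in each other class, a log2 difference above 0 gave 2 in liver, 2 in spleen, 5 in muscle, 4 in adipose and 2 in ovary. In the same order, 10.4%, 9.12%, 8%, 4.23% and 14.7% of all genes met that call. A difference above 2 gave 0 in ovary. At a difference above 1, a pseudocount of 0.1 FPKM gave 1 in liver, and quantile normalization gave 1 in adipose and 3 in ovary. Leaving out 1 breed at a time gave 0 to 1 in liver. Shares of all genes that met the call at a difference above 2, or at 1 in these changed settings, are not given here. Without the replicate block, 3 members were above the family in psoas major and 2 below, and scaling by the summed members gave 2 below. Leaving out 1 breed gave 2 to 4 below, with 2 without Bamei or without Jinhua. The block moved no other count of members by over 1.5 times, and 2.72% of all genes were then lower in psoas major, against 15.1% with it. The cause of these shifts was not tested.

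Set against the total without the 100 most abundant genes, some of them members, the median of the summed members was 10.7% in spleen, 10.46% in adipose, 8.923% in ovary, 8.811% in longissimus dorsi, 7.014% in heart, 6.678% in psoas major, 6.446% in lung, 4.891% in kidney and 4.269% in liver. Without genes of the mitochondrial genome it was 2.777% in heart, 1.88% in kidney, 2.303% in psoas major, 3.665% in longissimus dorsi and 5.363% in adipose. Counting error is unknown without read counts, which limits low members such as RPL10L most, and the breeds are the single source of error.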

Other observations

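The 9 mixtures of multiple tissues, whose composition the labels do not give, entered no comparison. The members took a median of 2.528% of total FPKM in them, with 1.645% in Hampshire and 2.914% in Berkshire at the ends. RPL14 in the mixtures ran from 164.8 FPKM in Meishan to 497.7 in Landrace, with a median of 292.1 FPKM.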
